A study of Homo sapiens with 8 samples.

Results

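The subject is a set of 35 genes that encode RNA polymerase II elongation factors: the largest polymerase subunit and the proteins that pause, release or travel with the transcribing enzyme. They were chosen by name, and all 35 carried reads, out of 21212 genes that had a read on an annotated intron of 1 gene. The reads counted are those that cross splice junctions in total RNA of K562, a long-established erythroleukaemia cell line of human origin, whose SF3B1 was either mutated (K700E) or wild type (WT). SF3B1 belongs to the U2 snRNP and grips the branch point of an intron, from which the 3′ splice site (acceptor) is then chosen; K700E is a recurrent substitution in cancers. The groups were K700E at day 4, WT at day 4, K700E at day 8 and WT at day 8, with 2 libraries each, and every sample carries the same treatment note, doxycycline at 1 µg/ml to induce the modified allele. The labels do not say whether a genotype was 1 clone, or whether replicates were separate cultures, so the p-values below measure only the spread between these libraries.

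Elongation starts when initiated polymerase leaves the promoter, and in animal cells the enzyme usually pauses soon afterwards. DSIF (SUPT4H1 and SUPT5H) and the negative elongation factor NELF hold it there. P-TEFb, a kinase made of CDK9 and a cyclin T, phosphorylates both factors and the polymerase tail and so releases the pause. The 7SK snRNP keeps P-TEFb inactive, and the super elongation complex brings it to genes. On the gene body the PAF1 complex, SPT6, the histone chaperone FACT and CDK12 or CDK13 with cyclin K support movement through chromatin, and SETD2 methylates histone H3 behind the enzyme. The series title names elongation by this polymerase as a theme of the study.

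The libraries held 49338071 to 77750812 uniquely mapped junction reads. SF3B1 itself had 720 and 704 CPM (counts scaled to a common library size with TMM factors) in K700E and 755 and 656 CPM in WT cells at day 4; the counts do not show which allele was expressed. Acceptors 10 to 30 nt upstream were looked at in 20 of 22 listed genes, known targets of SF3B1 hotspot mutations. The list came from an earlier report on these data, so it is not independent of these libraries. The median use of these acceptors was 23.02% and 20.4% in K700E and 1.33% and 2.19% in WT libraries at day 4. Not every gene separated (PPOX: 14.8% and 16.4% in K700E, 21.9% and 11.9% in WT). The day 8 medians were 2.67% and 21.04% under the K700E label and 0% and 23.9% under the WT label, so replicate 1 labelled K700E and replicate 2 labelled WT go against their labels; no library was moved. The libraries labelled WT day 8 also had few cryptic junctions seen with a single read, 4.02% and 6.03% of their cryptic junctions, against 29.1% to 43.9% in the other 6. A 0 for a cryptic junction in those libraries may therefore stand for a low count that was not listed. A label calls the cells epithelial: the epithelial genes CDH1 and CLDN4 were at or near 0 in all 8 libraries while KRT8 and KRT18 were present, and the erythroid factor GATA1 had 122 to 213 CPM. Megakaryocyte markers moved with genotype at day 4: 2 of 5 tested were called higher in K700E cells, and their summed level over 7 listed genes was 130 and 131 CPM in K700E against 12.8 and 24.3 CPM in WT cells, with PF4 and GP9 at or near 0. Their part in the results below was not tested.

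RTF1 carried the acceptor that changed, and the sequences on which the splicing results turn are shown first. RTF1 (chr15:41408408-41483563, plus strand, build hg38) encodes the PAF1-complex-associated factor that stimulates H2B ubiquitylation. In RTF1 the reference acceptor follows base 41471171 and joins coding exon 7 to coding exon 8; the cryptic one lies 20 nt upstream of it, in the intron, and that intronic stretch is not shown. Below, the last 60 bases of exon 7 are in lower case and the first 60 bases of exon 8 in capitals, the join that the cryptic acceptor replaces. In SSRP1 the capitals are the 78 coding bases at the start of exon 5 that a cryptic acceptor leaves out, after 60 bases of intron and before 60 bases of the remaining exon. In CDK13 the capitals are the 15 bases that an annotated upstream acceptor adds between the intron and exon 4. In CCNT2 the run is the start of an exon found only in transcripts annotated for nonsense-mediated decay, with its stop codon in capitals. All were read from GENCODE release 29 transcripts, 5′ to 3′.
RTF1 exons (chr15:41470333-41470392 joined to chr15:41471172-41471231): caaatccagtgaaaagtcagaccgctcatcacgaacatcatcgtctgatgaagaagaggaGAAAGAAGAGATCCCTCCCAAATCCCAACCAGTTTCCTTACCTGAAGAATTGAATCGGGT
SSRP1 intron end and exon (chr11:57333012-57333209, minus strand): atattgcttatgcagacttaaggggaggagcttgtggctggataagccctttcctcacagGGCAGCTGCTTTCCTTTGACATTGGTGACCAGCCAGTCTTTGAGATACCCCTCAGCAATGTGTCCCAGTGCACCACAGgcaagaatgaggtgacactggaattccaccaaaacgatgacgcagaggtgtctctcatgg
CDK13 intron end and exon (chr7:39999286-39999420, plus strand): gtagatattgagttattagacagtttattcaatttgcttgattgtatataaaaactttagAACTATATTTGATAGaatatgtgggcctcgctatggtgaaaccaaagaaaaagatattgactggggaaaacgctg
CCNT2 exon start (chr2:134945889-134945917, plus strand): atctttgggggatagcaagaaacattTGA
Each of the SSRP1 and CDK13 acceptors, reference and other, follows an AG. The 78 and 15 bases are multiples of 3 and keep the reading frame, while the 20 added in RTF1 are not. In SSRP1 the 20 bases before the AG held 13 pyrimidines at the reference and 11 at the cryptic acceptor, and in CDK13 10 at the upstream and 11 at the reference acceptor.

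The cryptic RTF1 acceptor was used in K700E cells at day 4 and almost absent from WT cells. It had 49 and 33 reads in K700E and 1 and 2 reads in WT libraries, which is 13.4% (95% Wilson interval 10.3% to 17.3%) and 7.57% (5.44% to 10.4%) of the reads leaving exon 7 in K700E, against 0.130% (0.0230% to 0.734%) and 0.274% (0.0751% to 0.992%) in WT cells. Intervals cover counting error only. The groups did not overlap, and the difference of 10.3 percentage points passed (adjusted p = 0.00296, edgeR quasi-likelihood test of acceptor use over all 69838 acceptor junctions tested). This was the only one of the members' 242 tested acceptor junctions that was called (adjusted p under 0.05, with 5 points or more between the groups), where 0.468% of all acceptor junctions were. The call was lost with limma's diffSplice (adjusted p = 0.192) and without WT day 4 replicate 1 or 2 (adjusted p = 0.220 and 0.257), and without either K700E library the junction did not pass the read filter. It had passed that filter (5 reads in 2 libraries) only through the K700E libraries, where it was high, so its p-value is not independent of that difference. At day 8 the share was 0% and 9.13% in the libraries labelled K700E and 0% and 8.22% in those labelled WT. By counting error alone, counts of 0 allow shares of up to 0.552% and 0.398% in these libraries. The second limit, for WT day 8 replicate 1, holds only if low counts were listed, and few single-read cryptic junctions were listed there. Replicate 2 of each label was high and replicate 1 was at 0, so the labelled groups overlapped (difference 0.50 points, not called).

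RTF1 was also the member with the lowest level relative to WT at day 4. Its summed junction reads were 83.3 and 106 CPM in K700E and 204 and 191 CPM in WT cells, and all 17 of its main introns had fewer CPM in both K700E libraries than in both WT libraries. Here and below, the introns of a gene share its transcripts and the same libraries, so their counts are not separate tests of its level. The log2 difference was -1.04 (SE 0.16), 2.06-fold lower in K700E, and did not pass adjustment over all genes (adjusted p = 0.0685, edgeR quasi-likelihood test). It passed with DESeq2 (adjusted p = 6.86e-06), without the low-count filter and without either K700E library, and its adjusted p was 0.483 and 0.481 without WT replicate 1 and 2 and highest, 0.521, in a model over all 8 libraries. At day 8 it had 137 and 52.8 CPM in the libraries labelled K700E and 194 and 98.6 CPM in those labelled WT (log2 difference -0.66, SE 0.57, adjusted p = 1.00). Within each label at day 8, the library in which the cryptic acceptor was seen, replicate 2, had the lower RTF1 level. Replicate 2 was also the lower one under each label for many other members. These included SETD2, LEO1, LARP7, CDK13, SUPT4H1, SUPT16H, NELFA, NELFCD, MLLT3 and TCEA1. For others it was the higher one, among them CDK9, PAF1, CDC73, CCNK and MLLT1. The share of all genes with either pattern was not counted, so the RTF1 order is not particular to it. A link between the acceptor and the level was not tested. A bulk level cannot tell fewer cells with a transcript from less of it per cell.

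**Figure D1:**
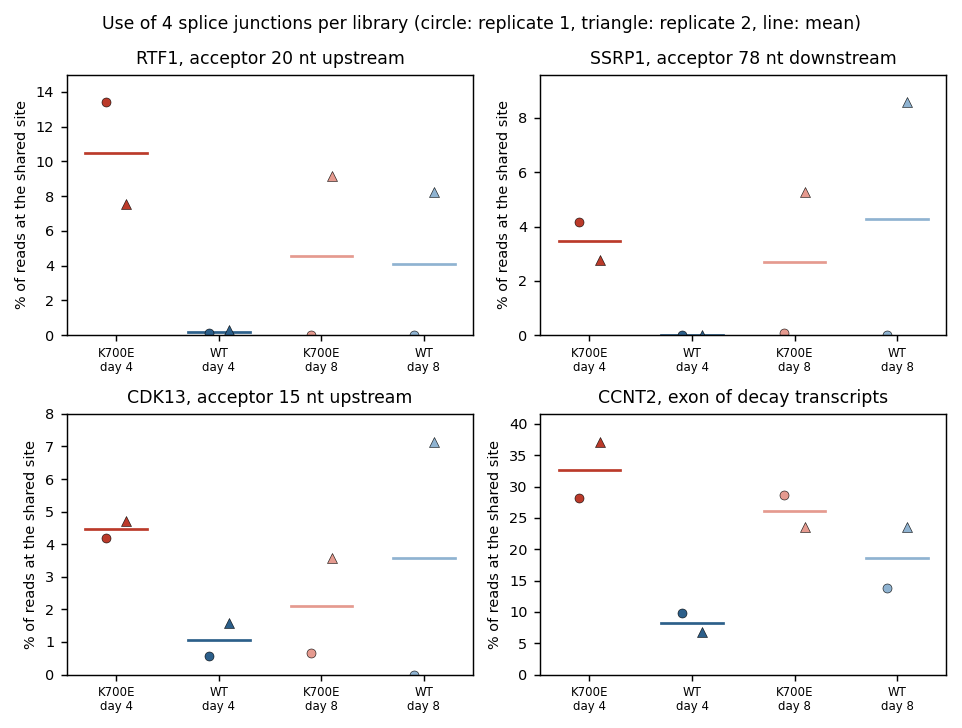
Percent of the reads at the shared splice site that used each of 4 junctions, per library: the cryptic acceptor of RTF1, that of SSRP1, the annotated upstream acceptor of CDK13 and the exon of CCNT2 found in decay-annotated transcripts. At day 4 both K700E libraries lie above both WT libraries in each panel; at day 8 replicate 2 (triangle) of each label is the high one for RTF1, SSRP1 and CDK13.

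SSRP1, the FACT subunit that binds histones and DNA, had a cryptic acceptor inside coding exon 5 that no WT read used at day 4. The junction chr11:57333072-57333434 had 90 and 54 reads of 2154 and 1944 in K700E and 0 reads of 1583 and 2047 in WT libraries. That is 4.18% (3.41% to 5.11%) and 2.78% (2.14% to 3.61%) in K700E cells, against 0% in WT cells, where the counts allow up to 0.190% and 0.147%. The junction passed the read filter (5 reads in 2 libraries) only through the K700E libraries, where it was high. Its p-value is therefore not independent of that difference, and without either K700E library it could not be tested. The difference of 3.49 points had an adjusted p of 0.000356 (edgeR; 0.0688 and 0.127 without WT day 4 replicate 1 and 2) and stayed under the 5 points that a call required; it is given because of its values. At day 8 the share was 0.0799% and 5.29% in the libraries labelled K700E and 0% and 8.57% in those labelled WT, again high in replicate 2 of each. The level of SSRP1 itself was 554 and 600 CPM in K700E and 556 and 608 CPM in WT cells at day 4, with overlapping groups (log2 difference 0.00, SE 0.12).

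Acceptors 10 to 30 nt upstream of a reference acceptor are the kind that SF3B1 mutations are known to open. The members had 81 of them with any read, and 10, in 9 genes, had enough reads to test at day 4. RTF1's was called and the others were not; over all genes 9.06% of 1590 such acceptors were called higher in K700E. Of the 10, 3 were above WT in both K700E libraries without overlap and 1 was below. Over all genes 58.2% of the 1590 were above and 156 of the 1590 were below. The 3 were those of RTF1, CDK13 and AFF4, and the 1 below was in SUPT6H (0.947% and 1.06% in K700E, 2.86% and 1.81% in WT cells). CDK13, a kinase of the polymerase tail, used its annotated acceptor 15 nt upstream (intron chr7:39997665-39999345) at 4.20% and 4.71% in K700E and 0.573% and 1.57% in WT cells, a difference of 3.38 points (adjusted p = 0.218). At day 8 that acceptor took 0.660% and 3.57% in the libraries labelled K700E and 0% and 7.14% in those labelled WT. AFF4, the scaffold of the super elongation complex, had a tested acceptor 21 nt upstream with 5 and 5 reads in K700E and 2 and 0 in WT cells. This acceptor passed the read filter only through the K700E libraries. A second one, 20 nt upstream of another of its exons (intron chr5:132889194-132892163) and chosen after its values were seen, had 28 and 3 reads in K700E and 0 and 0 in WT cells, too few to be tested at day 4. At day 8 it had 4 and 13 reads in the libraries labelled K700E and 0 and 0 in those labelled WT. The 0 counts under the WT label may be low counts that were not listed, as described above. The mean of both days did not pass (difference 2.42 points, adjusted p = 0.796, edgeR). The acceptors of SUPT16H, LEO1, SUPT5H (a pair), NELFCD and NELFA overlapped between genotypes; in LEO1, the most used of these, the share was 4.44% and 9.09% in K700E and 4.85% and 7.32% in WT cells.

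CCNT2 encodes a cyclin T of P-TEFb, and its exon with the early stop codon was read more often in K700E cells at day 4. Reads from the 2 donors of that exon were 28.3% and 37.2% of all reads at the acceptor of the next coding exon in K700E, against 9.80% and 6.79% in WT cells, from 253 to 315 and 245 to 265 reads. The main donor (intron chr2:134945976-134946100) took 23.2% and 29.2% in K700E and 7.76% and 6.42% in WT cells, a difference of 19.2 points that did not pass (adjusted p = 0.164, edgeR) and passed with limma's diffSplice (adjusted p = 0.0473). The second donor of the exon, 7 bases on, took 5.08% and 7.91% in K700E and 2.04% and 0.377% in WT cells (adjusted p = 0.375). At day 8 the exon's share was 28.7% and 23.6% in the libraries labelled K700E and 13.8% and 23.6% in those labelled WT. Here replicate 1 of the K700E label was high, unlike at the RTF1, SSRP1 and CDK13 acceptors. The gene's level was 36.8 and 30.2 CPM in K700E and 41.6 and 37.6 CPM in WT cells at day 4 (log2 difference -0.22, SE 0.17, adjusted p = 0.501).

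None of the members' 208 tested donor junctions was called at day 4, where 0.0309% of 64625 were; 1 was called by diffSplice, beside 0.125% of all, and 19 had an unadjusted p under 0.05, beside 5.65% of all. Among the acceptor junctions 22 of 242 had such a p, beside 7.02% of all. IWS1, which binds SPT6, gave the next lowest p: the junction that skips its second exon (chr2:127505753-127526174, 116 bases, annotated in a processed transcript) had 7 and 1 reads in K700E and 24 and 33 in WT libraries. It took 1.67% and 0.270% of reads at its donor in K700E and 7.89% and 10.1% in WT cells (adjusted p = 0.0545), and it was called when junctions needed at least 10 reads (adjusted p = 0.0276). At 10 reads it passed the filter only through the WT libraries, where it was high. AFF4 left out its 87-base exon 5 in 7.37% and 9.03% of reads at the donor in K700E and 16.7% and 13.9% in WT cells (adjusted p = 0.527). In LARP7, which stabilises 7SK RNA, a donor inside exon 4 annotated in decay transcripts took 13.2% and 8.15% in K700E and 21.8% and 17.6% in WT cells (adjusted p = 0.877). In SUPT16H an alternative acceptor near the first exon took 12.9% and 9.09% in K700E and 22.4% and 17.2% in WT cells (adjusted p = 0.817). A cryptic junction within CDK12, with 2 and 5 reads in K700E and 13 and 22 in WT libraries, took 6.06% and 16.1% of reads at its site in K700E and 50% and 45.8% in WT libraries (adjusted p = 0.442). These 5 did not overlap between genotypes at day 4 and were lower in K700E. Not overlapping at day 4 was one of the conditions on which they were named. At day 8, as labelled, only CDK12's stayed lower without overlap (23.8% and 22.7% in K700E, 40.7% and 26.5% in WT). IWS1's had the opposite order (0.307% and 1.35% in K700E, 0% and 0% in WT). The labels overlapped for AFF4 (12.1% and 3.73% in K700E, 5.85% and 1.97% in WT), SUPT16H (5.50% and 13.5% in K700E, 4.45% and 6.38% in WT) and LARP7 (12.9% and 11.5% in K700E, 8.91% and 16.4% in WT).

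At day 8 none of the members' 192 acceptor and 157 donor junctions was called, with 5 and 4 at an unadjusted p under 0.05 by edgeR and none called by diffSplice. The mean of both days also gave no call among 327 acceptor and 267 donor junctions (14 and 12 at an unadjusted p under 0.05, none by diffSplice). Without the second library labelled WT day 8 that mean called 3 acceptors, of CCNT2 (both acceptors of the decay exon) and ELL2, and 1 donor, of CCNT2, beside 0.573% of all acceptor and 0.192% of all donor junctions; RTF1's acceptor was not among them. In CCNT1, the other cyclin T, the junction that skips the 164-base exon 7 took 14.6% and 17.5% in the libraries labelled K700E day 8 and 47.1% and 30.7% in those labelled WT day 8, against 16.2% and 19.3% in K700E and 17.2% and 18.1% in WT cells at day 4. The day 8 difference was not called, and the junction was picked after its values were seen.

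Junctions of the 35 genes were of 3 kinds: 493 main, 501 other annotated or annotated-site (alternative) and 1235 with an unannotated site (cryptic). Pooled over the members, cryptic junctions took 0.484% and 0.368% of reads in K700E and 0.549% and 0.463% in WT cells at day 4, where over all genes they took 0.906% and 0.780% in K700E and 0.854% and 0.789% in WT. Alternative junctions took 1.13% and 1.012% in K700E and 1.498% and 1.42% in WT cells, where all genes gave 2.04% and 1.85% in K700E and 2.12% and 1.96% in WT. At day 8 the members' cryptic share was 0.398% and 0.437% in the libraries labelled K700E and 0.378% and 0.536% in those labelled WT.

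No member's cryptic share was called at day 4 among the 31 tested (called needs a change of at least 1 point; 0.0582% of 10304 genes were), and 2 had an unadjusted p under 0.05, where 5.31% of genes did. They were SSRP1, with 0.377% and 0.269% in K700E against 0.122% and 0.0930% in WT cells (adjusted p = 0.182), and RTF1, with 1.87% and 0.801% in K700E against 0.552% and 0.496% in WT cells (adjusted p = 0.636). In 4 members both K700E libraries lay above both WT libraries (SSRP1, RTF1, NELFE and MLLT3) and in 8 below, beside 16.8% and 23.9% of all genes. Among the 32 members tested for alternative share none was called, beside 0.0195% of 10276 genes; 2 had an unadjusted p under 0.05, SUPT16H and CTR9, beside 5.30% of genes. Of these 32, 17 had both K700E libraries below both WT libraries, where 28.6% of genes did, and 3 had both above (SUPT4H1, CCNT2 and ELL), where 15.8% did. In CTR9 the alternative share was 0.314% and 0.0983% in K700E and 0.637% and 0.633% in WT cells (adjusted p = 0.707).

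The cryptic shares were highest, averaged over the 8 libraries, in ELL3, ELL2, AFF1, IWS1 and CDK12. ELL3's rests on 10 reads in 1 library labelled WT day 8. At day 4 they were 1.27% and 0.607% in K700E and 1.62% and 1.31% in WT cells for ELL2, and 1.61% and 0.971% in K700E and 1.74% and 1.93% in WT cells for AFF1. For IWS1 they were 1.60% and 1.43% in K700E and 2.03% and 1.53% in WT cells, and for CDK12 1.51% and 0.816% in K700E and 1.48% and 2.06% in WT cells. Only ELL2 and AFF1 of these 4 did not overlap, both lower in K700E. The alternative shares were highest in MLLT3, CCNT2, SUPT4H1, CDK12 and LARP7. MLLT3, a reader of acetylated and crotonylated histones in the super elongation complex, had 16.5% and 14.9% in K700E and 17.5% and 16.7% in WT cells at day 4, and 8.06% and 10.7% in the libraries labelled K700E and 6.81% and 8.56% in those labelled WT at day 8. At day 4 CCNT2 had 11.6% and 13.3% in K700E and 9.66% and 8.58% in WT cells, and SUPT4H1 9.21% and 8.99% in K700E and 8.01% and 7.26% in WT cells. CDK12 had 4.41% and 5.06% in K700E and 5.97% and 5.53% in WT cells, and LARP7 4.77% and 4.35% in K700E and 5.95% and 5.47% in WT cells. None of these shares was called at day 8 or for the mean of both days, where no member had an unadjusted p under 0.05 except 1 alternative share in the mean.

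The level of the 35 genes spanned a wide range. Compared per intron, as the median CPM of a gene's main introns, TCEA1, which lets a backtracked polymerase cleave its transcript, was highest with 30.9 to 113 over the 8 libraries. SSRP1 followed with 21.2 to 41.3 and the NELF subunit NELFE with 13.9 to 31.8; the ranges of neighbours in this order overlapped throughout, except between ELL and ELL3. ELL had 1.38 to 2.37 and ELL3 0.0483 to 0.284, with 6 to 41 reads per library over the whole gene.

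**Figure D2:**
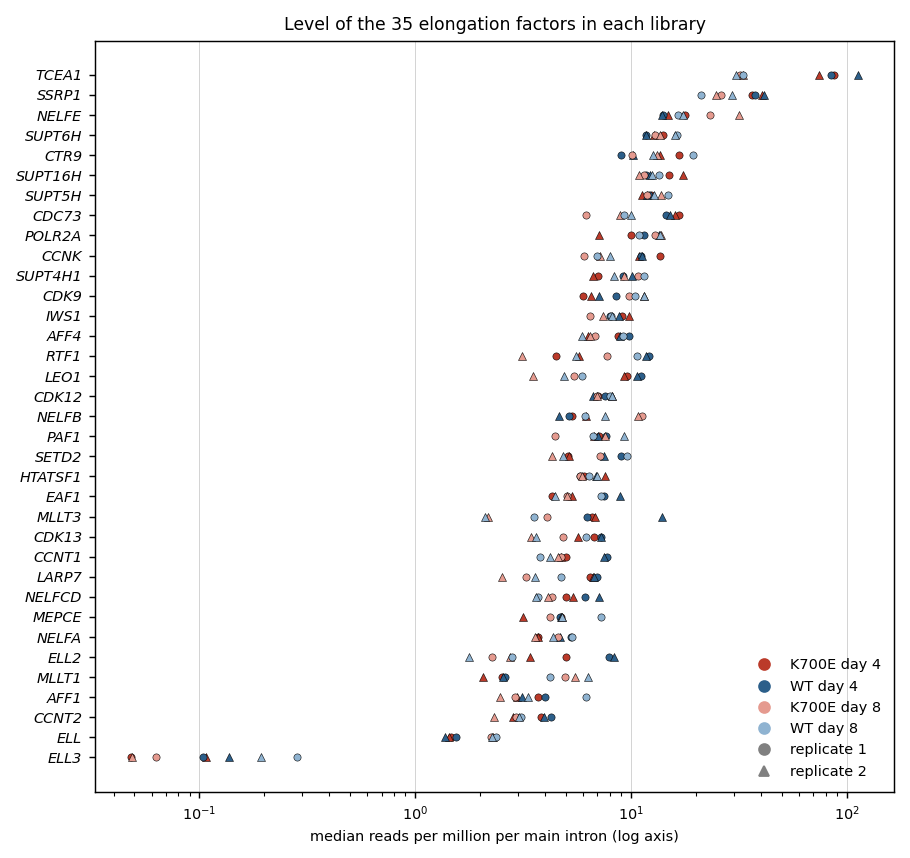
Median CPM per main intron (log axis) for each of the 35 members in each library, ordered by the mean over the 8 libraries; colour gives genotype and day, shape the replicate. TCEA1, SSRP1 and NELFE stand highest, and ELL3 lies far below the rest.

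No member's level was called different between K700E and WT cells at day 4 by edgeR, where 0.529% of 13991 genes were. By unadjusted p under 0.05 there were 9 members of 35, beside 21.3% of all genes, and DESeq2 called 6 members, beside 11.7% of all genes. Both K700E libraries were above both WT libraries in 6 members and below in 16, beside 26.4% and 28.2% of genes. The members' median log2 difference was -0.21, against 0.02 over all genes tested.

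By role, all 3 subunits of P-TEFb had both K700E libraries below both WT libraries, beside 28.2% of all genes. CCNT1 (chr12:48688458-48716998) had 40.0 and 39.2 CPM in K700E and 63.6 and 60.8 CPM in WT cells, with all 8 main introns lower without overlap (log2 difference -0.63, SE 0.13, adjusted p = 0.101). CDK9, the kinase itself, had 38.6 and 44.0 CPM in K700E and 59.6 and 49.8 CPM in WT cells (log2 difference -0.39, SE 0.16, adjusted p = 0.252). The K700E libraries were close to each other in CCNT1 and the WT libraries were spread in CDK9. At day 8 CCNT1 had 38.6 and 37.6 CPM in the libraries labelled K700E and 30.6 and 34.1 CPM in those labelled WT, the opposite order. CDK9 had 60.8 and 71.6 CPM in the libraries labelled K700E and 62.0 and 71.0 CPM in those labelled WT, with overlap.

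In the super elongation complex 7 of 8 members had a lower estimate in K700E at day 4 (median log2 difference -0.45), and 4 were lower without overlap. Over all genes tested 51.4% had a higher estimate, and 28.2% were lower without overlap. ELL2, an elongation factor that joins P-TEFb in this complex, had 57.8 and 34.98 CPM in K700E and 86.7 and 90.6 CPM in WT cells (log2 difference -0.92, SE 0.25, adjusted p = 0.137). EAF1, which binds ELL proteins, had 22.3 and 26.1 CPM in K700E and 37.6 and 43.9 CPM in WT cells (log2 difference -0.74, SE 0.18, adjusted p = 0.120). In both genes every main intron, 11 in ELL2 and 5 in EAF1, was lower in both K700E libraries. At day 8 neither gene separated the labels: ELL2 had 23.9 and 32.6 CPM in the libraries labelled K700E and 32.4 and 18.1 CPM in those labelled WT, and EAF1 had 24.7 and 26.5 CPM in the libraries labelled K700E and 35.3 and 24.5 CPM in those labelled WT. ELL, AFF1, MLLT1, AFF4, MLLT3 and ELL3 had day 4 log2 differences between -0.62 and 0.02 (adjusted p = 0.382 to 0.964).

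The PAF1 complex held the lowest and the highest estimate of the 35 at day 4. RTF1 was lowest, as described above. CTR9, a scaffold subunit (chr11:10750987-10801625), had 386 and 319 CPM in K700E and 212 and 244 CPM in WT cells, with 24 of 25 main introns higher without overlap (log2 difference 0.64, SE 0.15, adjusted p = 0.115). At day 8 CTR9 had 239 and 319 CPM in the libraries labelled K700E and 450 and 334 CPM in those labelled WT, the opposite order (log2 difference -0.53, SE 0.27). PAF1, LEO1 and CDC73, the other subunits among the 35 genes, lay between -0.22 and 0.10; WDR61, a further subunit, had 0.55 (adjusted p = 0.174).

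FACT and NELF were mixed at day 4. SUPT16H, the other FACT subunit, had 362 and 435 CPM in K700E and 299 and 314 CPM in WT cells (log2 difference 0.40, SE 0.14, adjusted p = 0.198), and 24 of its 25 main introns were higher without overlap. Of the 4 NELF subunits NELFA had 37.5 and 38.6 CPM in K700E and 60.7 and 47.7 CPM in WT cells (log2 difference -0.49, SE 0.17, adjusted p = 0.189). NELFCD had 78 and 84.1 CPM in K700E and 95.3 and 99.4 CPM in WT cells (log2 difference -0.25, SE 0.12, adjusted p = 0.315). NELFE, the RNA-binding subunit, had 167 and 149 CPM in K700E and 127 and 130 CPM in WT cells, higher in K700E without overlap (log2 difference 0.31, SE 0.13, adjusted p = 0.242). NELFB had 63.7 and 73.6 CPM in K700E and 67.0 and 57.3 CPM in WT cells, with overlap.

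Among the rest, SETD2 and POLR2A were lower in both K700E libraries at day 4. SETD2, the H3 lysine methyltransferase (chr3:47016429-47163967), had 93.8 and 103 CPM in K700E and 176 and 146 CPM in WT cells, with all 20 main introns lower (log2 difference -0.69, SE 0.15, adjusted p = 0.108). POLR2A, the catalytic subunit that carries the repeated tail, had 296 and 210 CPM in K700E and 335 and 417 CPM in WT cells, with 26 of 28 main introns lower (log2 difference -0.56, SE 0.21, adjusted p = 0.210). At day 8 SETD2 had 138 and 83.4 CPM in the libraries labelled K700E and 188 and 104 CPM in those labelled WT, with replicate 2 the lower one under each label. POLR2A had 374 and 374 CPM in the libraries labelled K700E and 313 and 390 CPM in those labelled WT. DSIF, SPT6 with IWS1, CDK12/13 with cyclin K, and the 7SK proteins LARP7 and MEPCE had log2 differences between -0.36 and 0.21 and adjusted p of 0.336 or more; HTATSF1 and TCEA1 had 0.10 and -0.26.

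**Figure D3:**
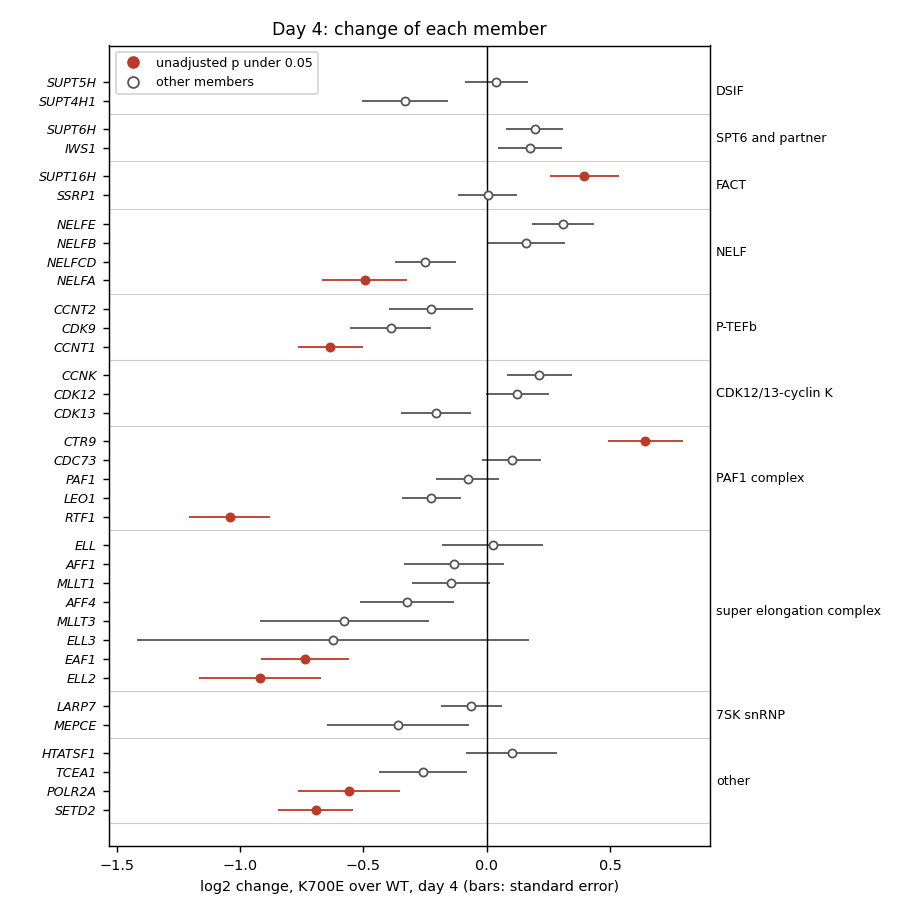
Log2 difference of each member's level, K700E over WT at day 4, with its standard error, grouped by complex; filled points have an unadjusted p under 0.05. RTF1 has the lowest value and CTR9 the highest, both in the PAF1 complex; all 3 P-TEFb subunits lie below 0.

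**Figure D4:**
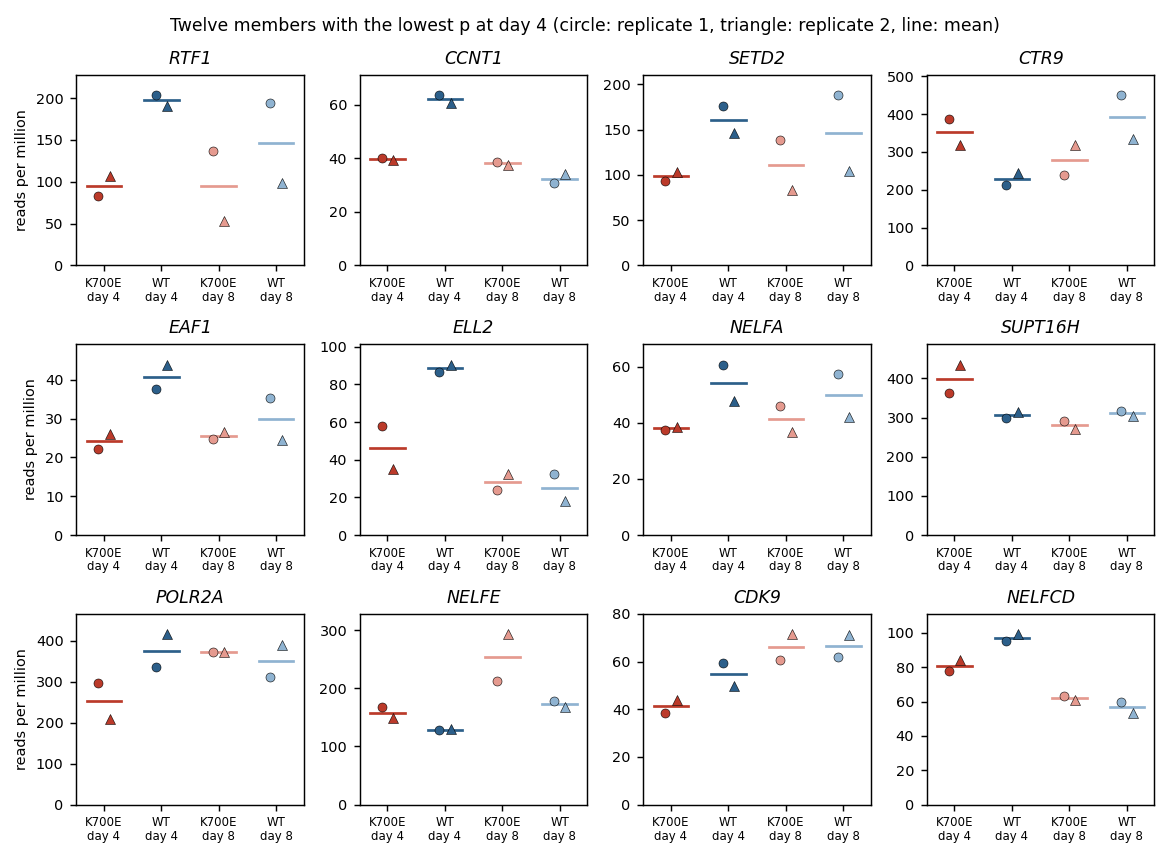
CPM in every library for the 12 members with the lowest p at day 4 (points: libraries; line: mean of 2), each panel from 0. At day 4 the K700E and WT libraries separate in all 12. In CCNT1, CTR9, SUPT16H and NELFCD the groups as labelled have the opposite order without overlap at day 8, where some libraries go against their labels. In ELL2 and POLR2A the day 8 means also have the opposite order, with overlapping libraries.

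At day 8 no member was called by edgeR or DESeq2, and 1, NELFB, had an unadjusted p under 0.05, beside 2.92% of 13990 genes. NELFB had 126 and 121 CPM in the libraries labelled K700E and 71.1 and 88.7 CPM in those labelled WT (log2 difference 0.59, SE 0.22, adjusted p = 1.00). The mean of both days gave no call by either tool and 6 members with an unadjusted p under 0.05 (NELFA, NELFB, NELFE, RTF1, EAF1 and SETD2), beside 9.28% of 14902 genes. The difference between the days' label contrasts (K700E minus WT as labelled, day 8 minus day 4) gave no call by either tool. With an unadjusted p under 0.05 by edgeR there were 3 members, beside 9.20% of genes: CCNT1 (log2 0.89), CTR9 (-1.12) and SUPT16H (-0.52). As some day 8 libraries went against their labels, neither this contrast nor the mean of both days can be read as genotype alone. The labels at day 8 also differed in how many single-read junctions were listed, which bears on every day 8 label contrast.

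Between the days far more moved. Over the 2 genotypes together, 17 of the 35 members were called, 5 higher and 12 lower at day 8, beside 18.1% of 14902 genes called higher and 18.0% lower. All 4 day 8 libraries lay above all 4 day 4 libraries in 4 members and below in 11, beside 17.4% and 17.7% of genes. The members' median log2 change was -0.18 and that of all genes 0.00. The day 4 libraries and the 2 day 8 pairs were aligned in separate runs, per the file headers and with the same settings, so day and run cannot be told apart. At day 8 the listing of junctions also differed by label. Single-read junctions were 43.9% and 40.5% of cryptic junctions under the K700E label, against 4.02% and 6.03% under the WT label. Day 8 label and this technical difference cannot be told apart. Of the 17 calls, 10 held under every alternative fit: NELFCD, CCNK, LEO1, CDC73, ELL, ELL2, MLLT1, MLLT3, TCEA1 and LARP7.

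TCEA1 and 2 members of the super elongation complex fell most. TCEA1 had 291 and 286 CPM in the libraries labelled K700E and 303 and 277 CPM in those labelled WT at day 8, against 756 and 596 CPM in K700E and 720 and 914 CPM in WT cells at day 4. The day 8 libraries lay within a narrow band below every day 4 library (log2 change -1.36, SE 0.14, adjusted p = 0.00100, edgeR quasi-likelihood test). MLLT3 had 36.5 and 19.1 CPM in the libraries labelled K700E and 30.1 and 20.5 CPM in those labelled WT at day 8, against 67.5 and 66.7 CPM in K700E and 65.0 and 138 CPM in WT cells at day 4. One WT day 4 library stood above the rest (log2 change -1.64, SE 0.31, adjusted p = 0.00631). ELL2, whose values by library are given above, fell by 1.26 on the log2 scale (SE 0.25, adjusted p = 0.00746).

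In the same complex ELL and MLLT1 rose. ELL had 26.7 and 27.5 CPM in the libraries labelled K700E and 28.4 and 27.8 CPM in those labelled WT at day 8, against 16.3 and 16.2 CPM in K700E and 17.9 and 14.4 CPM in WT cells at day 4 (log2 change 0.77, SE 0.14, adjusted p = 0.00512). MLLT1, a paralogue of MLLT3, had 60.1 and 70.2 CPM in the libraries labelled K700E and 56.8 and 73.0 CPM in those labelled WT at day 8, against 34.7 and 32.7 CPM in K700E and 40.2 and 35.04 CPM in WT cells at day 4 (log2 change 0.87, SE 0.14, adjusted p = 0.00345). The paralogue pairs ELL with ELL2 and MLLT1 with MLLT3 thus had day changes of opposite sign. AFF1, AFF4, EAF1 and ELL3 were not called.

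The PAF1 subunits LEO1 and CDC73 (parafibromin) fell. LEO1 had 60.03 and 36.6 CPM in the libraries labelled K700E and 68.5 and 59.2 CPM in those labelled WT at day 8, against 95.03 and 99.7 CPM in K700E and 116 and 114 CPM in WT cells at day 4 (log2 change -0.93, SE 0.17, adjusted p = 0.00575). CDC73 had 105 and 140 CPM in the libraries labelled K700E and 142 and 155 CPM in those labelled WT at day 8, against 266 and 257 CPM in K700E and 235 and 258 CPM in WT cells at day 4 (log2 change -0.91, SE 0.13, adjusted p = 0.00223). In both genes all 4 day 8 libraries were the lower ones. PAF1, CTR9 and RTF1 were not called (log2 0.08, 0.22 and -0.22).

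Cyclin K, LARP7 and FACT's SSRP1 also fell. CCNK had 56.0 and 65.6 CPM in the libraries labelled K700E and 69.8 and 81.0 CPM in those labelled WT at day 8, against 121 and 113 CPM in K700E and 95.6 and 108 CPM in WT cells at day 4 (log2 change -0.69, SE 0.12, adjusted p = 0.00478). LARP7 had 48.0 and 34.3 CPM in the libraries labelled K700E and 61.6 and 47.3 CPM in those labelled WT at day 8, against 78.5 and 83.4 CPM in K700E and 86.9 and 84.1 CPM in WT cells at day 4 (log2 change -0.81, SE 0.15, adjusted p = 0.00649). None of these libraries overlapped between days. SSRP1 had 409 and 392 CPM in the libraries labelled K700E and 334 and 424 CPM in those labelled WT at day 8 and, as given above, 554 to 608 CPM at day 4 (log2 change -0.57, SE 0.12, adjusted p = 0.00957; 0.0571 without WT day 4 replicate 2). MEPCE, the 7SK capping enzyme, had a log2 change of 0.50 that was not called (adjusted p = 0.0982).

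Within P-TEFb the kinase CDK9 rose and both cyclins T fell, and the kinase CDK13 also fell. CDK9 rose to 60.8 to 71.6 CPM over the 4 day 8 libraries, against 38.6 to 59.6 CPM over the 4 day 4 libraries (log2 change 0.48, SE 0.13, adjusted p = 0.0259). CCNT1 fell to 30.6 to 38.6 CPM at day 8, against 39.2 to 63.6 CPM at day 4 (log2 change -0.50, SE 0.11, adjusted p = 0.0126). CCNT2 had 28.0 and 24.3 CPM in the libraries labelled K700E and 28.8 and 29.02 CPM in those labelled WT at day 8, below all its day 4 values (log2 change -0.41, SE 0.13, adjusted p = 0.0488). CDK13 had 70.0 and 51.5 CPM in the libraries labelled K700E and 79.8 and 51.6 CPM in those labelled WT at day 8, against 94.2 and 77.5 CPM in K700E and 99.3 and 101 CPM in WT cells at day 4, with overlap (log2 change -0.55, SE 0.18, adjusted p = 0.0481). CDK9 and CDK13 lost their calls without any of the 4 day 4 libraries or without replicate 2 of either day 8 label (adjusted p = 0.0509 to 0.109 and 0.0721 to 0.152), CCNT2 without any of the 8 libraries (adjusted p = 0.0630 to 0.189) or the low-count filter, and CCNT1 without either WT day 4 library (adjusted p = 0.0692 and 0.0613).

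Of NELF, 3 of 4 subunits were called, in both directions. NELFE had 213 and 293 CPM in the libraries labelled K700E and 178 and 168 CPM in those labelled WT at day 8, above its 127 to 167 CPM at day 4 (log2 change 0.55, SE 0.13, adjusted p = 0.0163). NELFB had 71.1 to 126 CPM at day 8 against 57.3 to 73.6 CPM at day 4, with overlap (log2 change 0.60, SE 0.13, adjusted p = 0.009998). NELFCD had 63.0 and 60.8 CPM in the libraries labelled K700E and 60.01 and 53.6 CPM in those labelled WT at day 8, below its 78 to 99.4 CPM at day 4 (log2 change -0.58, SE 0.11, adjusted p = 0.00555). NELFE lost its call without WT day 4 replicate 1 or 2 or K700E day 4 replicate 2 (adjusted p = 0.0611, 0.0629 and 0.0673), and NELFB without WT day 4 replicate 2 or K700E day 4 replicate 1 (adjusted p = 0.0541 and 0.0507).

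**Figure D5:**
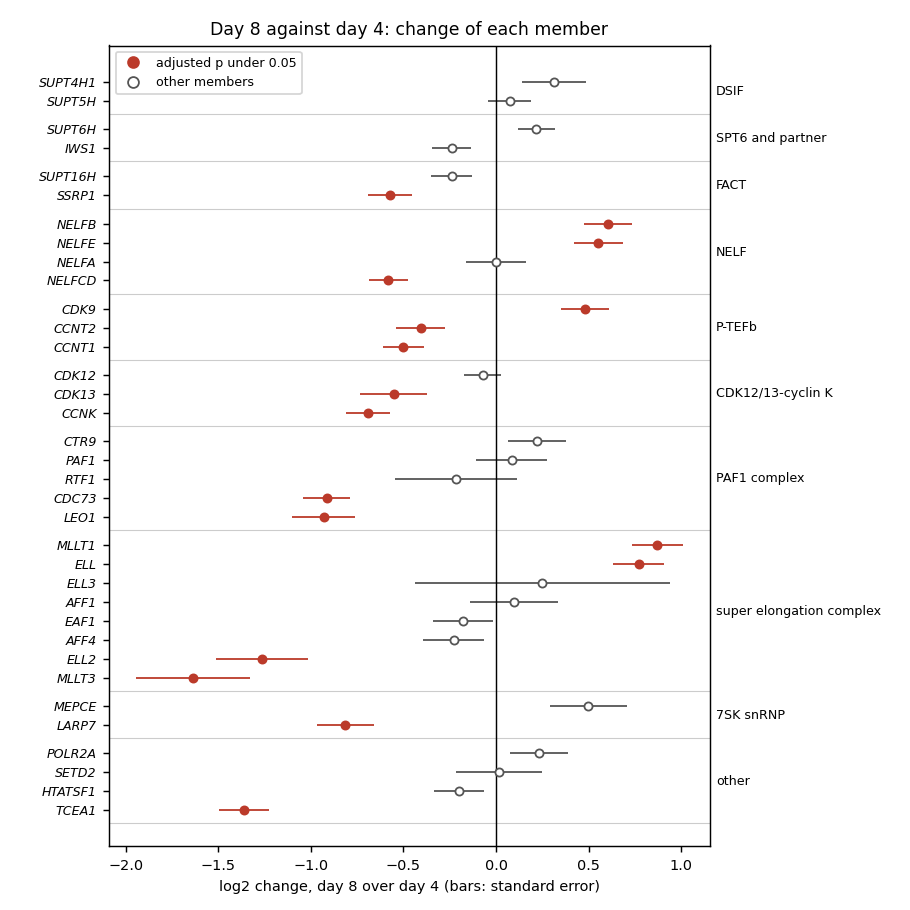
Log2 change of each member's level, day 8 over day 4 with both genotypes together, with its standard error, grouped by complex; filled points have an adjusted p under 0.05. MLLT3, TCEA1 and ELL2 have the lowest values, and MLLT1 and ELL the highest.

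The wider elongation pathway was described with 9 lists of other genes, 72 of 74 found. At day 4, 1 of 71 tested was called, beside 0.529% of all genes: RPRD1A, which binds the phosphorylated polymerase tail, had 95.7 and 112 CPM in K700E and 46.6 and 45.2 CPM in WT cells (log2 difference 1.19, adjusted p = 0.0464, edgeR). The genes had a median log2 difference of 0.00, and 16 had an unadjusted p under 0.05, beside 21.3% of all genes. Of the 16, 5 were among 14 Integrator subunits, where INTS9 (122 and 129 CPM in K700E, 71.0 and 78.9 CPM in WT cells, adjusted p = 0.0809) and INTS2 (adjusted p = 0.123) had the lowest p. Of the other lists, genes among the pair with the lowest p at day 4 were POLR2C and POLR2G of the 12 further polymerase subunits (log2 -0.44 and 0.35), DDX21 of 5 P-TEFb regulators (-0.37), and UBE2B and WDR61 of 9 histone modification genes (-0.55 and 0.55). Others were ICE2 and ZC3H8 of the little elongation complex (0.67 and -0.42), PHF3 of the Elongin and TFIIS list (-0.41), and XRN2, beside RPRD1A, of the termination genes (0.52). MNAT1 and CDK7 of the TFIIH and TFIIF list (0.21 and -0.16) and CHD2 and RECQL5 of the remodellers (-0.68 and 0.30) were also among them.

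Between the days 39 of these 72 genes were called, 12 higher and 27 lower at day 8, beside 18.1% and 18.0% of all genes, with a median log2 change of -0.25. Of the polymerase subunits 4 rose and 2 fell; POLR2L rose by 1.52 on the log2 scale (adjusted p = 0.00108). Of Integrator 2 rose and 7 fell, with INTS13 at -1.54 and INTS5 at 2.11. In the TFIIH and TFIIF list 4 of 5 fell and none rose: CDK7, the kinase of TFIIH, at -1.33, its partners CCNH at -1.10 and MNAT1 at -0.93, and GTF2F2 of TFIIF at -0.87.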

How the data were processed

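Splice junctions were measured in strand-specific total RNA libraries of K562 cells. Reads were trimmed with cutadapt and aligned to hg38, per the submitters' processing notes, with STAR 2.7.0e end to end in 1 pass, with an index of GENCODE release 29 junctions and those of release 22 added at mapping, per the file headers. The deposited values are raw counts of uniquely mapped reads per junction, as the authors' aligner wrote them. Its strand column was used to leave out junctions of undefined strand and to assign genes. Its motif column set the filter of the alternative share fit on canonical junctions. The annotation flag and overhang served as descriptions.

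Gene levels are sums over annotated introns of 1 gene, so unspliced RNA was not counted; introns of 2 genes (4.17% of unique reads) were left out. Multi-mapped reads added at most 2.16% to a member. Levels are CPM with TMM factors. edgeR 4.0.16 quasi-likelihood tests with Benjamini-Hochberg adjustment over all features tested were fitted per day for genotype and over 8 libraries for the mean, the interaction and the days. A junction needed 5 reads in 2 libraries and a mean of 20 reads at the shared site; a call needed an adjusted p under 0.05 and 5 points (shares 1 point). Unadjusted p-values are named as such. Alternatives were TMM against RLE factors, DESeq2 1.42.0, limma 3.58.1 diffSplice, other filters, multi-mapped reads, the replicate number as a block and each library left out. Tools were tested on simulated data.

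The members, lists and tests were chosen with earlier results of these data known. Every member is accounted for; full values are given for those called in any gene test and the 12 with the lowest p at day 4, for called junctions and the 10 with the lowest p among non-overlapping changes of at least 5 points, and for the 5 highest shares of each kind. Values of some genes of the wider lists are not reported here. The depth per library, 49338071 to 77750812 junction reads, sets the intervals printed with single shares.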

Additional observations from a re-analysis of the deposited data

How the results depend on the processing

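Depth and 2 libraries a group limit every comparison: junctions under 5 reads were not tested, and counting error at most member sites spans several points. For the day 4 levels, DESeq2 called 6 members and the fit without the low-count filter 7, and leaving out 1 library gave 0 to 8 (8 and 4 without K700E replicate 1 and 2, 0 without either WT library); each named member kept its sign in every one of 10 alternatives. Over all genes the day 4 calls were 74, against 1634 with DESeq2, 1567 without the filter, 126 with the replicate block, 0 in the 8-library model and 0 to 2536 with 1 library left out. The cause was not tested. With all 8 libraries, DESeq2 called 27 genes at day 8, 112 for the mean of both days and 192 for the interaction, where edgeR called 0, and without the filter 41 and 102 were called for the mean and the interaction.

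For acceptor use at day 4 the members had 0 calls with diffSplice, 2 with at least 10 reads and 0 with any 1 library left out; over all junctions 327 calls became 8 to 110 with 1 library left out. For donor use diffSplice called 1 member junction (81 of all, against 20; 38 with at least 10 reads, 8 with the block and 0 to 58 with 1 library left out). The mean of both days gave 0 to 3 member acceptors and 0 to 1 member donors with 1 library left out, and 499 and 155 of all junctions without WT day 8 replicate 2. Cryptic and alternative shares called no member under any alternative; without WT day 8 replicate 2 they called 607 genes (cryptic, day 8), 272 (cryptic, mean) and 160 (alternative, mean). At day 4 the cryptic calls over all genes were 6, against 35 with canonical junctions of 3 reads, 3 with the block and 0 to 11 with 1 library left out, and the alternative calls were 2, against 0 with the block and 0 to 6.

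Between the days 10 to 16 members were called with 1 library left out (5369 genes over all, 3406 and 2897 without WT day 4 replicate 1 and 2). Libraries that share a replicate number showed correlations of their deviations of 0.17 (K700E and WT, day 4), 0.28 (day 8) and down to -0.20 across days, so the numbers were not taken as pairs; with the replicate block the members had 0 calls for level at day 4, 1 for acceptor use and 17 between the days, as without it.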
